A study of Homo sapiens with 70 samples.

Results

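The genes described here are 42 nuclear genes whose proteins copy, transcribe and process mitochondrial DNA and its RNAs or charge mitochondrial tRNAs. They were taken by name from a fixed list of symbols, out of 78932 genes in the deposited table. The rule itself uses no measured value, but the list was chosen with earlier results of these data known. By role they fall into 5 genes of DNA replication and packaging, 8 of transcription, 13 of RNA processing and stability and 16 mitochondrial aminoacyl-tRNA synthetases. All 42 were found in the table and were tested in each comparison.

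Mitochondria keep a small circular genome that encodes core subunits of the respiratory chain together with the ribosomal and transfer RNAs needed to translate them, and every protein that maintains and reads this genome is imported from the cytosol. A dedicated polymerase copies the DNA and another transcribes it into long RNAs, which are cut mainly at the tRNAs they contain, then polyadenylated, stabilised or degraded. Mitochondrial synthetases, in most cases encoded separately from their cytosolic counterparts, load each tRNA with its amino acid. ZBTB11 is a zinc finger protein of the BTB family that acts in transcription.

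RNA was sequenced from MIA PaCa-2, an established pancreatic ductal adenocarcinoma line, in a form resistant to sotorasib, an inhibitor of a mutant K-Ras protein. All cells carried dCas9-KRAB, a nuclease-dead Cas9 joined to a repressor domain, and 1 of 3 guide RNAs. The guides sgZBTB11 #1 and sgZBTB11 #2 are directed at ZBTB11, and sgNS is the control guide. Each line was given DOX (doxycycline, which induces dCas9-KRAB) or DMSO (the vehicle) and collected at 5 hr and at days 1, 3 and 5, in 24 groups and 70 libraries. Groups held 3 libraries, except that the sgZBTB11 #1 DMSO group at day 5 and the sgNS DMSO group at day 1 held 2. Each guide was represented by 1 line, and the labels do not state whether lines were clones or whether sotorasib was in the medium. They also do not state whether libraries of a group were grown as separate cultures, so every p-value below measures scatter among the libraries at hand, possibly of technical origin. DOX was given to sgNS cells too, and the control guide therefore shows what DOX and dCas9-KRAB did without a ZBTB11 guide.

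Library totals were 12068842 to 20627642 counts, with a median of 15773579. The median over 70 libraries of the epithelial keratins KRT8 and KRT18 was 993 and 1560 TPM (a level scaled for gene length and library size) and that of VIM was 3330 TPM. The keratins KRT19 and KRT7 had medians of 87.6 and 0.09 TPM. The median of the leukocyte gene PTPRC, the endothelial gene PECAM1 and the fibroblast gene DCN was 0. Other genes of these classes were above 0, with 1.05 TPM for CD68 (leukocyte), 5.8 TPM for CDH5 (endothelial) and 0.35 TPM for COL1A1 (fibroblast). ZBTB11 did not pass the test with DOX in sgZBTB11 #1 at 5 hr (log2 change 0.00) and was lower at days 1, 3 and 5 by -0.28, -0.45 and -0.42. In sgZBTB11 #2 cells its log2 change was -0.17 at 5 hr and -0.59, -0.79 and -0.90 at days 1, 3 and 5. With sgNS it was 0.17 at 5 hr (adjusted p = 0.003) and -0.15 at day 5 (adjusted p = 0.032) by edgeR's quasi-likelihood test. Mitochondrially encoded RNAs gave 13.6% ± 0.777 of counts (mean ± SD) in the 9 DMSO libraries of 5 hr, 10.8% ± 0.937 in the 8 of day 1, 19.4% ± 1.89 in the 9 of day 3 and 30% ± 3.24 in the 8 of day 5. The libraries were made from polyA RNA, in which mitochondrial RNAs are caught only as far as they carry a tail. In bulk RNA a change per cell and a change in the mix of cells cannot be told apart.

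Levels spread widely among the 42 genes. SLIRP, an RNA-binding partner of LRPPRC, was the highest, with a lowest, median and highest value over the 70 libraries of 239, 408 and 641 TPM. SSBP1, which coats single-stranded mitochondrial DNA, came second at 126, 257 and 351 TPM. These ranges overlapped, so their order is that of the medians.

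Below them on the same scale were HSD17B10, a subunit of the RNase P that cuts the 5′ ends of mitochondrial tRNAs, with a median of 77.5 TPM, and the RNA-stability protein FASTK with 77.3 TPM. The tyrosyl-tRNA synthetase gene YARS2 had a median of 69.4 TPM and LRPPRC, which stabilises mitochondrial mRNAs, had 66 TPM. POLRMT, the mitochondrial RNA polymerase, had 49.2 TPM, and POLG, the catalytic subunit of the DNA polymerase, had 36.7 TPM. TRMT10C, another subunit of RNase P, had 22.9 TPM and TFAM, which packages mitochondrial DNA and starts its transcription, had 18 TPM. At the low end stood 3 synthetases, MARS2 with 2.90 TPM, WARS2 with 2.60 TPM and PARS2 with 1.65 TPM. PARS2 had as few as 31 counts in a library, which limits the precision of its changes.

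The genes lie on 18 chromosomes, and 10 of the 42 overlap another protein-coding gene. Among these are POLG with FANCI, ELAC2 with ARHGAP44, FARS2 with LYRM4 and EARS2 with GGA2. The strand setting of the counting is not given in the sources used here, so reads from the overlapping stretch cannot be assigned with certainty. TRMT10C (GRCh38.p14, chr3:101561868-101566446) is 82443 bases from ZBTB11 (chr3:101648889-101677132), with PCNP between them.

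Promoters were read for 37 of the 42 genes from RefSeq sequences of GRCh38.p14, as the 250 bases before the annotated start, and those of 4 genes that the comparisons below turn on are printed 5′ to 3′ on the plus strand. TWNK, MTERF3, FASTKD5, AARS2 and VARS2 had no entry. Capitals mark matches to CCGGAAG, the core motif of the ETS factor GABP, and to the motif of NRF1, on either strand. Both factors are known regulators of nuclear genes for mitochondrial proteins. The SSBP1 window is chr7:141738071-141738320 and holds neither motif, the TRMT10C window is chr3:101561618-101561867, the TFAM window is chr10:58385160-58385409 and the MARS2 window, from the gene for methionyl-tRNA synthetase, is chr2:197705119-197705368.
SSBP1: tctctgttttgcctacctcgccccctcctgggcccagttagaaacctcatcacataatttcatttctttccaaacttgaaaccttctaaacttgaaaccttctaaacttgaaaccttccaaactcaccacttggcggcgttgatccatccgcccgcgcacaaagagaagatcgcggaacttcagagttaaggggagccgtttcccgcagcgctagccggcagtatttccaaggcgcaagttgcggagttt
TRMT10C: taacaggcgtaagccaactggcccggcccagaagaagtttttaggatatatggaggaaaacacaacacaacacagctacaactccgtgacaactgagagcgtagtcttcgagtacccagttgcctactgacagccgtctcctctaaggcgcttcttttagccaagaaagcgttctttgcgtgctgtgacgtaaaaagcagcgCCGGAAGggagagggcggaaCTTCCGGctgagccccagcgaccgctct
TFAM: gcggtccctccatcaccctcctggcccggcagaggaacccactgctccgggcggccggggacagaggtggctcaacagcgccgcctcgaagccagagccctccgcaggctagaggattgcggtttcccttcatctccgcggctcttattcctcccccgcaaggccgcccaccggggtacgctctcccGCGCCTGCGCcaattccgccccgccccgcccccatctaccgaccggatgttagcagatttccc
MARS2: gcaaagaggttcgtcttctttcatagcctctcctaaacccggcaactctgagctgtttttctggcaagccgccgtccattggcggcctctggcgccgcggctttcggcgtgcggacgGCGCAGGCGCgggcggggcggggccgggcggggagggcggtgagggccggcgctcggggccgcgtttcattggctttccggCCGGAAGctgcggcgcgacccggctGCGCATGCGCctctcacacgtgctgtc

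In these windows TRMT10C holds the GABP motif at bases 48 to 42 before the start and, on the other strand, at 28 to 22. TFAM holds the NRF1 motif at 63 to 54, and MARS2 holds it at 133 to 124 and at 27 to 18, with the GABP motif at 52 to 46. Over the 37 promoters, 14 held the GABP motif (37.8%), against 11.8% of 15842 promoters of the same length. The NRF1 motif was found in 6 (16.2%), against 7.65% of all promoters. A pair of further motifs, that of BANP and AANATGGCG of YY1, each had 0 matches among the 37, against 0.587% and 1.63% of all promoters. The motifs do not overlap in the windows shown. A match of letters does not show that a factor binds there.

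Time in culture was compared in the 34 DMSO libraries alone, from 5 hr to day 5 and over all 3 guides. Many of the 42 genes were lower at day 3 than at day 1, and TFB2M, TWNK, TFAM, TRMT10C, MARS2 and YARS2 ended at well under their starting level. Values are CPM, counts set relative to the TMM-scaled library total, which do not correct for gene length and are compared only within a gene. The day of collection and the time in culture cannot be told apart, and the mitochondrially encoded share given above moved over the same days. Its part in these results was not tested.

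Between 5 hr and day 1, 9 of the 42 genes rose and 26 fell by edgeR's quasi-likelihood test, where 67.2% of the 17598 genes tested were called (34.1% higher, 33.1% lower). On the log2(TPM + 1) scale the split was 18 higher and 13 lower, with a median over all genes of 0.13. Between days 1 and 3, 8 rose and 26 fell, against 79.8% of all genes called (41.4% higher, 38.4% lower), and TPM gave 9 higher and 24 lower. The median log2 change over the 42 genes was -0.39, against 0.05 over all genes. From day 3 to day 5, 18 rose and 16 fell, against 65.3% of all genes (30.8% higher, 34.6% lower), but TPM gave 5 higher and 24 lower around an all-gene median of -0.18. The shares of the 42 called were 83.3%, 81% and 81% at the 3 steps, the second close to that of all genes, and the fall between days 1 and 3 was the step whose direction did not depend on the scale.

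**Figure D1:**
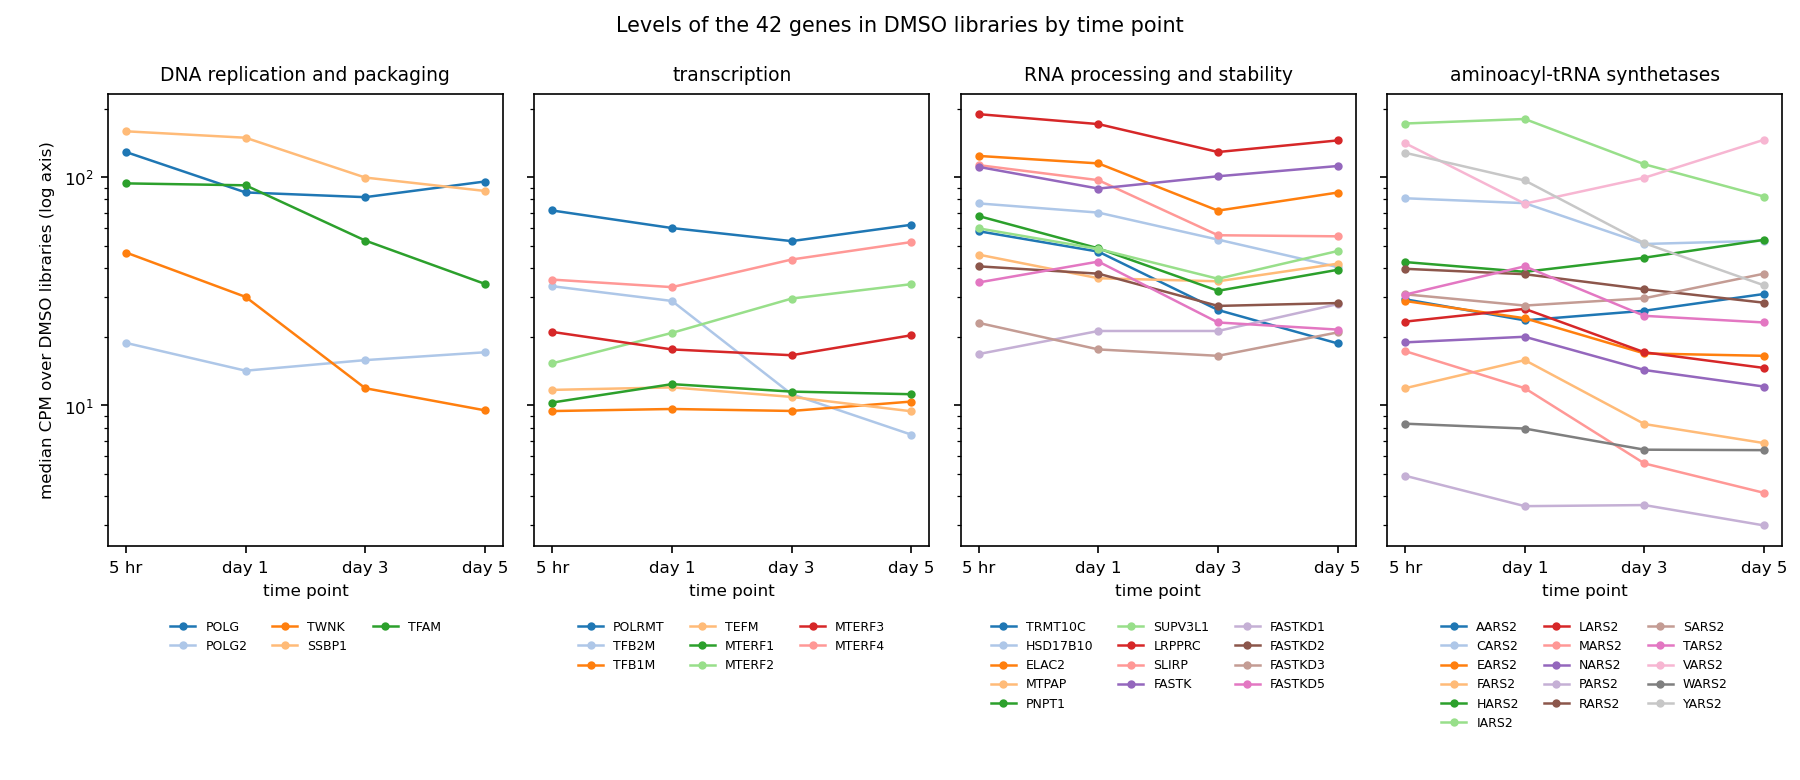
Median CPM of each of the 42 genes over the DMSO libraries (y axis, log scale) at 5 hr, day 1, day 3 and day 5 (x axis), in 4 panels by role, with 1 line per gene over 9, 8, 9 and 8 libraries. TFB2M, with medians of 33.3, 28.7, 11.2 and 7.45 CPM, and TWNK, with 46.8, 29.9, 11.9 and 9.52 CPM, slope down, while MTERF2, with 15.3, 20.8, 29.4 and 34 CPM, slopes up.

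Among the genes of DNA replication and packaging, TWNK encodes the helicase that opens the DNA ahead of the polymerase. Its lowest, median and highest values were 42.3, 46.8 and 52.6 CPM in 5 hr libraries and 28.7, 29.9 and 30.7 CPM in those of day 1. On day 3 they were 10.2, 11.9 and 13.6 CPM, and on day 5 they were 8.13, 9.52 and 10.6 CPM. Libraries of the first 3 times did not overlap, and those of days 3 and 5 did. The log2 change was -0.65 (SE 0.036) from 5 hr to day 1 and -1.31 (SE 0.045, adjusted p = 3.5e-33) from day 1 to day 3.

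TFAM fell at both steps after day 1. Its lowest, median and highest CPM were 80, 94 and 106 in 5 hr libraries and 79.8, 92.2 and 111 in those of day 1, against which day 3 gave 47.8, 52.8 and 55.2 and day 5 gave 31.8, 34.1 and 37.6. All 9 DMSO libraries of day 3 were below those of day 1, and all 8 of day 5 were below those of day 3. The log2 changes of these steps were -0.85 (SE 0.028, adjusted p = 1.3e-33) and -0.59 (SE 0.033, adjusted p = 1.4e-22). SSBP1 also fell after day 1, with medians of 159, 149, 99.7 and 87.1 CPM at the 4 times, and POLG, with medians of 129, 85.8, 81.8 and 95.8 CPM, changed by -0.52 over the first day and by 0.23 over the last step.

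Of the transcription genes, TFB2M encodes the factor that melts the promoter for POLRMT. Its DMSO values ran from 29.6 to 36.1 CPM in 5 hr libraries, from 25.4 to 31 in those of day 1, from 9.88 to 12.6 on day 3 and from 6.61 to 9.84 on day 5. Those of days 1, 3 and 5 did not overlap, and the log2 change between days 1 and 3, -1.32 (SE 0.045, adjusted p = 4.4e-33), was the most negative among the 42 genes. POLRMT, the enzyme TFB2M works with, had medians of 71.5, 59.9, 52.5 and 61.9 CPM, within a narrower range than TFB2M. Its change between days 1 and 3 was -0.16 on counts but 0.25 on the TPM scale. A pair of the MTERF genes, a family of mitochondrial DNA- and RNA-binding proteins, moved the other way. MTERF2 changed by 0.45 (adjusted p = 6.4e-10) over the first day and by 0.56 between days 1 and 3, and MTERF4, named like some others after its values were seen, with medians of 35.6, 33, 43.6 and 52 CPM, changed by 0.42 between days 1 and 3. On the TPM scale MTERF2 kept its rise between days 1 and 3 (0.51), but MTERF4 did not pass (0.06, adjusted p = 0.22). Between days 3 and 5 MTERF4 changed by 0.22 on counts and by -0.19 on the TPM scale.

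Within RNA processing and stability, 11 of 13 genes fell and 2 rose over the first day, whereas TPM gave 5 lower and 5 higher. Between days 1 and 3, 9 fell and 1 rose on both scales. TRMT10C had medians of 58, 47.2, 26.2 and 18.7 CPM at the 4 times, with log2 changes of -0.82 (SE 0.035) and -0.54 (SE 0.043, adjusted p = 1.4e-16) for the last 2 steps. SLIRP changed by -0.95 between days 1 and 3 and FASTKD5, a protein of mitochondrial RNA processing, by -0.84. PNPT1 and SUPV3L1, the ribonuclease and the helicase of the mitochondrial RNA degradosome, had medians of 67.6, 48.8, 31.8 and 39.3 CPM and of 59.7, 48.5, 35.9 and 47.5 CPM. Both had their lowest median at day 3, and SUPV3L1 changed by 0.41 from there to day 5. Over that last step 8 of the 13 rose and 3 fell, but TPM gave 3 higher and 6 lower.

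Synthetases differed among themselves. Between days 1 and 3, 11 of 16 fell and 4 rose, on both scales. YARS2 values ran from 122 to 133 CPM in 5 hr libraries, from 92.7 to 101 in those of day 1, from 44.6 to 57 on day 3 and from 30.7 to 38.8 on day 5, with no overlap between any of the 4 times. Its log2 changes over the last 2 steps were -0.90 (SE 0.026) and -0.63 (SE 0.031). MARS2 had medians of 17.3, 11.9, 5.57 and 4.14 CPM and changed by -0.52, -1.10 and -0.43. IARS2, for isoleucine, had medians of 172, 180, 114 and 82.3 CPM, and FARS2, for phenylalanine, changed by -0.85 between days 1 and 3. VARS2, for valine, went its own way, with medians of 141, 76.6, 99.5 and 146 CPM and changes of -0.77 (SE 0.031, adjusted p = 1.9e-23), 0.43 and 0.47. PARS2, for proline, changed by -0.64 (SE 0.094, adjusted p = 3.2e-08) over the first day. The 24 calls with the largest changes, 8 per step, were also made under all 6 other settings tried and without any single library.

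As a mean over the 4 times, the differences between lines without DOX were small. At single times they could be larger. At 5 hr, VARS2 in DMSO libraries ran from 107 CPM, with sgZBTB11 #2, to 169 CPM, with sgNS. Averaged over the 4 times, sgZBTB11 #1 DMSO cells had 14 of the 42 genes higher and 3 lower than sgNS DMSO cells, against 30% of all genes called (15% higher, 15% lower), and TPM gave 5 higher and 3 lower. The largest of these differences was that of WARS2, for tryptophan, at 0.30 (SE 0.064, adjusted p = 0.00018). HSD17B10 differed by -0.22 and FASTKD1, MTPAP (the mitochondrial polyA polymerase) and EARS2 by 0.21, 0.21 and 0.20. For sgZBTB11 #2 DMSO cells, 7 were higher and 5 lower than in sgNS DMSO cells, against 18.8% of all genes (8.68% higher, 10.2% lower). PARS2 differed by 0.24, AARS2 by -0.17, VARS2 by -0.15 and TRMT10C by 0.11. The PARS2 call was lost without single libraries, with an adjusted p of up to 0.11 and a difference of 0.22 without sgNS DMSO day 1 replicate 2, and that of MARS2 in sgZBTB11 #1 (0.15) with a p of up to 0.14. These baseline differences sit under every comparison of DOX between guides.

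DOX over DMSO was compared within each guide at each time. The net change below is the average DOX effect of both ZBTB11 guides less the DOX effect of sgNS, so a DOX effect of the same size with all guides cancels out, and all net values share the sgNS libraries.

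**Figure D2:**
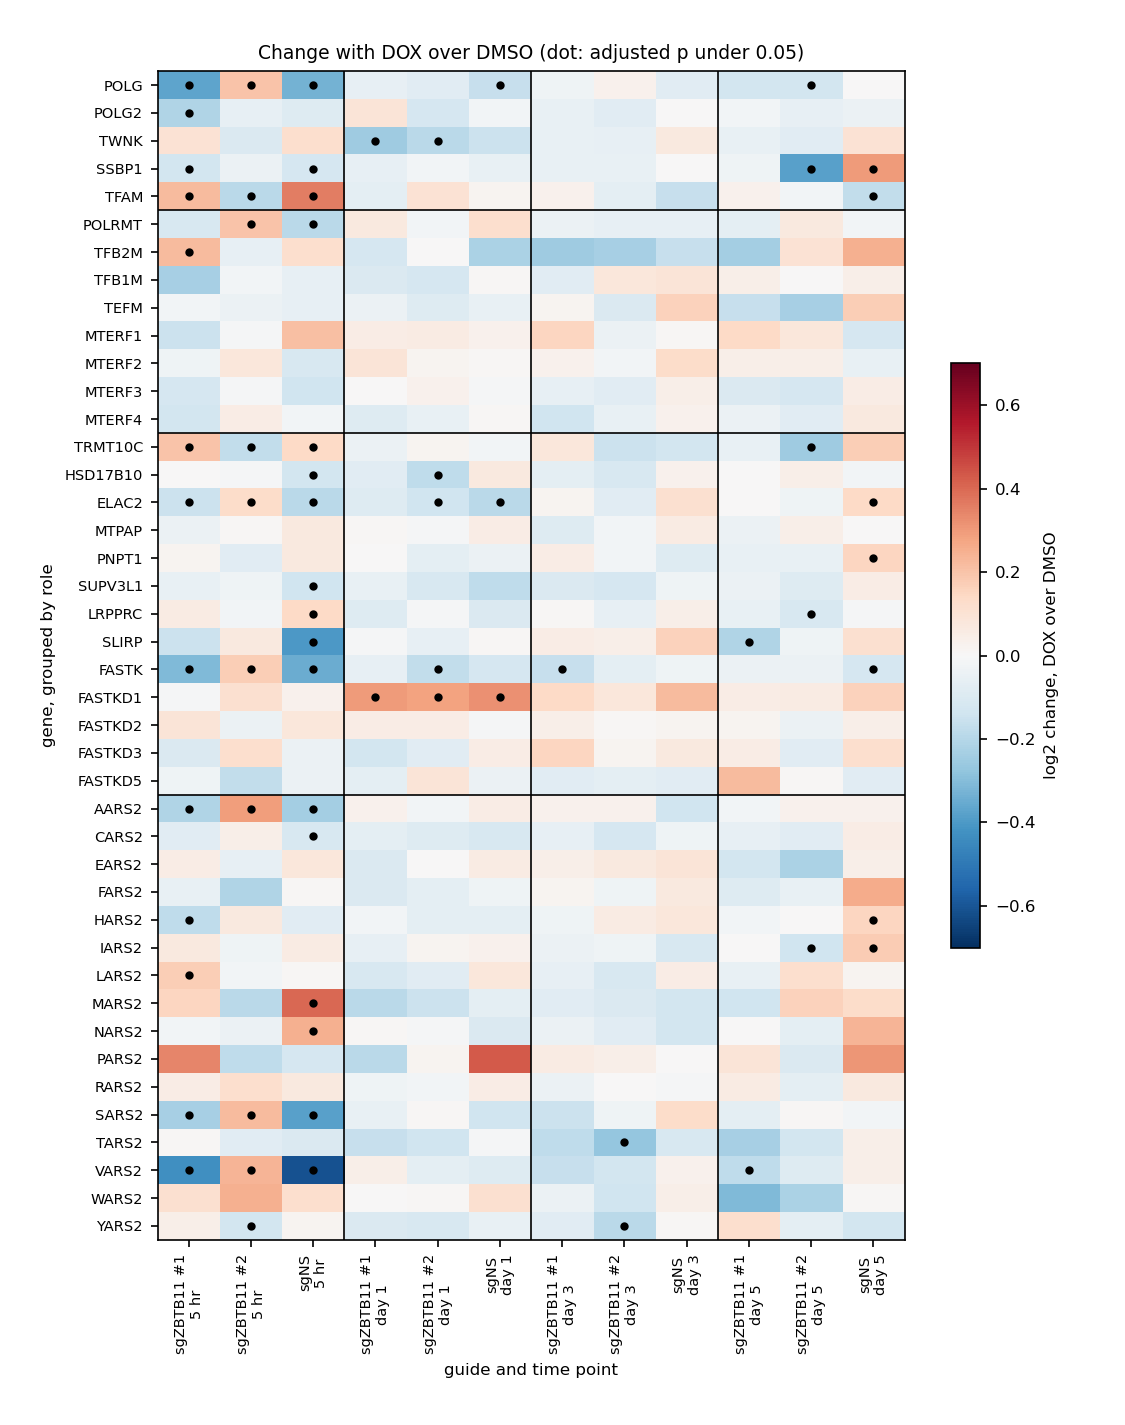
Log2 change with DOX over DMSO (colour) for the 42 genes (rows, grouped by role) in sgZBTB11 #1, sgZBTB11 #2 and sgNS cells at each of 4 times (columns), with a dot where the adjusted p was under 0.05. Most dots are at 5 hr, where VARS2 changed by -0.43 and -0.61 in sgZBTB11 #1 and sgNS cells and by 0.24 in sgZBTB11 #2 cells.

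At 5 hr several genes moved one way with DOX in sgZBTB11 #1 and sgNS cells and the other way in sgZBTB11 #2 cells, among them VARS2, POLG and TFAM. In sgZBTB11 #1 cells 4 of the 42 genes were higher and 9 lower with DOX, against 32.8% of all 15623 genes called (17.4% higher, 15.4% lower), and in sgZBTB11 #2 cells 7 were higher and 3 lower, against 17% of all genes (8.35% higher, 8.67% lower). In sgNS cells 5 were higher and 12 lower, against 40.9% (20.9% higher, 20.1% lower). For the net change 9 were higher and 5 lower, against 30% (14.7% higher, 15.2% lower), and for the difference between the ZBTB11 guides 8 were higher and 7 lower, against 35.1% (16.7% higher, 18.4% lower). In either direction the shares of the 42 called were 31%, 23.8%, 40.5%, 33.3% and 35.7% in the same order. They were near those of all genes, least so in sgZBTB11 #2 cells. By direction the shares within guides could differ more, as the counts show.

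VARS2 had 98.4, 102 and 105 CPM in sgZBTB11 #1 DOX libraries at 5 hr, against 129, 142 and 141 CPM in DMSO libraries. With sgZBTB11 #2 it had 128, 131 and 129 CPM with DOX, against 107, 109 and 115 CPM with DMSO. The sgNS libraries had 104, 109 and 98.1 CPM with DOX, against 146, 167 and 169 CPM with DMSO. In each guide DOX and DMSO libraries were apart, with DOX lower in sgZBTB11 #1 and sgNS and higher in sgZBTB11 #2. The log2 changes were -0.43 (SE 0.051, adjusted p = 5e-07), 0.24 (SE 0.051, adjusted p = 0.0017) and -0.61 (SE 0.050, adjusted p = 8.2e-10).

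POLG moved in the same pattern, by -0.37, 0.20 and -0.33 in sgZBTB11 #1, sgZBTB11 #2 and sgNS cells. It had 98.4, 110 and 102 CPM in sgZBTB11 #1 DOX libraries, against 128, 134 and 140 CPM with DMSO. The sgZBTB11 #2 libraries had 121, 132 and 127 CPM with DOX, against 110, 107 and 116 CPM with DMSO. Again no DOX library overlapped a DMSO library of its guide. FASTK changed by -0.31, 0.17 and -0.35, SARS2 (for serine) by -0.23, 0.22 and -0.38, and AARS2 (for alanine) by -0.21, 0.29 and -0.24 in the same order of guides. SLIRP changed by -0.40 and MARS2 by 0.40 in sgNS cells.

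TFAM moved in the opposite direction to POLG for each guide. In sgZBTB11 #1 cells it had 113, 110 and 102 CPM with DOX, against 94, 95.7 and 90.9 CPM with DMSO. In sgZBTB11 #2 cells it had 89.8, 87.2 and 89.4 CPM with DOX, against 101, 106 and 98.9 CPM with DMSO, and in sgNS cells 104, 105 and 110 CPM, against 88.3, 80 and 84.5 CPM. DOX libraries were above the DMSO libraries in sgZBTB11 #1 and sgNS and below them in sgZBTB11 #2. The log2 changes were 0.22 (SE 0.040, adjusted p = 3.9e-05), -0.19 (SE 0.041, adjusted p = 7e-04) and 0.36 (SE 0.041, adjusted p = 3e-09). TFB2M changed by 0.22 and POLG2 by -0.21 in sgZBTB11 #1 cells. TRMT10C changed by 0.20 in sgZBTB11 #1 and by -0.17 in sgZBTB11 #2 cells, where the call was lost without sgZBTB11 #2 DMSO 5 hr replicate 2 (-0.13, adjusted p = 0.075). POLRMT changed by 0.20 in sgZBTB11 #2 cells.

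Gene length moved with these results. Among all genes at 5 hr, the median log2 change with DOX in the lowest quartile of length minus that in the highest came to -0.23 with sgZBTB11 #1, to 0.06 with sgZBTB11 #2 and to -0.35 with sgNS. On the TPM scale the 42 genes split into 7 higher and 3 lower in sgZBTB11 #1, 3 higher and 1 lower in sgZBTB11 #2 and 18 higher and 4 lower in sgNS cells, around all-gene medians of 0.08, -0.01 and 0.17. The net split on that scale was 2 higher and 14 lower around an all-gene median of -0.13, and with the length trend removed it was 8 and 8. The direction of the group as a whole at 5 hr thus depended on the scale, and the part of gene length in the single calls was not tested. On that scale POLG did not pass in sgZBTB11 #2 (0.15, adjusted p = 0.19) or sgNS cells (-0.06, adjusted p = 0.49), TFAM did not pass in sgZBTB11 #2 cells (-0.12, adjusted p = 0.49) and POLG2 in sgZBTB11 #1 cells had 0.00.

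By day 1 few genes passed. FASTKD1, a member of the FASTK family of RNA-binding proteins, was higher with DOX for each of the 3 guides, the control included. In sgZBTB11 #1 cells 1 gene was higher and 1 lower (4.84% of all genes called, 1.64% higher and 3.2% lower), in sgZBTB11 #2 cells 1 was higher and 4 lower (7.88%, of which 3.43% higher and 4.45% lower), and in sgNS cells 1 was higher and 2 lower (2.19%, of which 0.559% higher and 1.63% lower). FASTKD1 had 25.1, 24.9 and 25.1 CPM in sgZBTB11 #1 DOX libraries, against 18.7, 21.9 and 21.5 CPM with DMSO. It had 27.4, 26 and 24.9 CPM in sgZBTB11 #2 DOX libraries, against 22.5, 21.8 and 20.5 CPM with DMSO. In sgNS cells the values were 25.6, 26.8 and 23.5 CPM with DOX and 20.9 and 20 CPM with DMSO, and no guide's libraries overlapped. The log2 changes were 0.30 (adjusted p = 0.0042), 0.28 (adjusted p = 0.0048) and 0.32 (adjusted p = 0.014) for sgZBTB11 #1, sgZBTB11 #2 and sgNS by edgeR's quasi-likelihood test. The first was lost without sgZBTB11 #1 DMSO day 1 replicate 1 (0.23, adjusted p = 0.072), and the sgNS call was lost without any of 4 of its 5 libraries, with values of 0.28 to 0.36 and an adjusted p of up to 0.23. By DESeq2 FASTKD1 did not pass in sgZBTB11 #1 (0.29, adjusted p = 0.059) or sgNS cells (0.32, adjusted p = 0.12), and on the TPM scale it passed for no guide, with 0.11, 0.25 and 0.14 (adjusted p = 0.7, 0.22 and 0.68).

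TWNK was lower with DOX at day 1 in both ZBTB11 guides, by -0.25 (adjusted p = 0.0041) and -0.19 (adjusted p = 0.029). Its DOX libraries had 23.5, 24.3 and 25 CPM with sgZBTB11 #1 and 27.7, 24.9 and 25.9 CPM with sgZBTB11 #2, against 29.6, 28.7 and 29.8 CPM and 29.9, 30 and 30.4 CPM in the DMSO libraries of those guides. In sgNS cells it had 27.3, 26 and 26.8 CPM with DOX, against 30.7 and 29.2 CPM with DMSO, so the DOX libraries of every guide were below the DMSO ones. The sgZBTB11 #2 call was lost without any of 4 of its 6 libraries, with values of -0.15 to -0.19 and an adjusted p of up to 0.13, while the sgZBTB11 #1 call was made without any single library, with an adjusted p of up to 0.034. Neither passed by DESeq2 (-0.26, adjusted p = 0.055, and -0.18, adjusted p = 0.24) or on the TPM scale (-0.30, adjusted p = 0.073, and -0.18, adjusted p = 0.23). ELAC2, which cuts the 3′ ends of mitochondrial tRNAs, was lower with sgZBTB11 #2 (-0.14) and with sgNS (-0.19). HSD17B10 (-0.18) and FASTK (-0.17) were lower with sgZBTB11 #2, and POLG (-0.16) was lower with sgNS. Of these, ELAC2 with sgZBTB11 #2, FASTK and POLG did not pass by DESeq2 (adjusted p = 0.071, 0.05 after rounding and 0.26), and ELAC2 with both guides, FASTK and POLG did not pass on the TPM scale.

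For the net change at day 1, 0 of the 42 genes passed, against 0.0737% of 16275 genes (0.0123% higher, 0.0614% lower), and at an unadjusted p under 0.05 there were 0 higher and 4 lower. The smallest p were those of HSD17B10 (-0.20, adjusted p = 0.24), PARS2 (-0.51, adjusted p = 0.74) and TARS2 (-0.15, adjusted p = 0.75). The ZBTB11 guides differed in their DOX change for 0 of the 42, against 0.0614% of all genes (0.0307% each way), with 2 higher and 0 lower at an unadjusted p under 0.05, and TFAM had the smallest p (0.17, adjusted p = 0.28).

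Day 3 gave the fewest calls. In sgZBTB11 #1 cells 0 genes were higher and 1 lower with DOX, FASTK by -0.16 (adjusted p = 0.025), against 0.733% of 16645 genes (0.192% higher, 0.541% lower). In sgZBTB11 #2 cells 0 were higher and 2 lower, TARS2 (for threonine) by -0.27 (adjusted p = 0.018) and YARS2 by -0.19 (adjusted p = 0.022), against 1.17% (0.276% higher, 0.895% lower). TARS2 had 21.4, 20.9 and 19.1 CPM in sgZBTB11 #2 DOX libraries, against 25.3, 24.1 and 24.6 CPM with DMSO, with no overlap. Each of these 3 calls was lost without some single library of its own guide, with an adjusted p of up to 0.19 (FASTK, -0.14 without sgZBTB11 #1 DOX day 3 replicate 3), 0.16 (TARS2, -0.22 without sgZBTB11 #2 DOX day 3 replicate 3) and 0.18 (YARS2, -0.16 without sgZBTB11 #2 DMSO day 3 replicate 3). By DESeq2 and on the TPM scale 0 of the 3 passed, with adjusted p of 0.086, 0.17 and 0.16 by DESeq2. In sgNS cells 0 passed, against 0.877% (0.403% higher, 0.475% lower), with 3 higher and 3 lower at an unadjusted p under 0.05.

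The net change at day 3 passed for 0 of the 42 genes, against 0.493% of all genes (0.156% higher, 0.336% lower), with 2 higher and 4 lower at an unadjusted p under 0.05. Of the 42 values 12 were above 0 and 30 below, and the median was -0.07, against 0.00 over all genes. VARS2 (-0.17, adjusted p = 0.20), SARS2 (-0.22, adjusted p = 0.29) and ELAC2 (-0.14, adjusted p = 0.31) had the smallest p. Without sgNS DMSO day 3 replicate 1, SARS2 passed (-0.31, adjusted p = 0.034), and so did TFAM for DOX in sgNS cells (-0.21, adjusted p = 0.022, against -0.16 and 0.14 with it). Between the ZBTB11 guides 0 of the 42 passed, against 0.018% of all genes (0.00601% higher, 0.012% lower), with 0 higher and 1 lower at an unadjusted p under 0.05. That gene was TRMT10C (-0.23, adjusted p = 0.61), which had 28.8, 26.4 and 27.6 CPM with DOX in sgZBTB11 #2 cells, against 31, 31.8 and 29 CPM with DMSO. In sgNS cells too, the TRMT10C values of the DOX libraries at day 3 were all below those of the DMSO libraries.

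At day 5, SSBP1 was lower with DOX in sgZBTB11 #2 cells and higher with DOX in sgNS cells, and it was the gene of the 42 with the largest net decrease. IARS2 went the same 2 ways by smaller amounts. In sgZBTB11 #1 cells neither changed past the threshold. The group of 42 had 9 genes with a negative net change past the threshold and none with a positive one on the scale of counts. That split turned round on the TPM scale, where the all-gene median was 0.19.

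SSBP1, whose values by library are given because they were seen to differ, had 81.9, 80.6 and 83.9 CPM in sgZBTB11 #1 DOX libraries, against 82 and 86.7 CPM in DMSO libraries. In sgZBTB11 #2 cells it had 70.4, 71.1 and 69.6 CPM with DOX, against 93, 90.2 and 91.9 CPM with DMSO. In sgNS cells it had 102, 108 and 108 CPM with DOX, against 82.4, 87.5 and 86.1 CPM with DMSO. The sgZBTB11 #1 libraries overlapped, the DOX libraries of sgZBTB11 #2 were all below, and those of sgNS all above, the DMSO libraries of their guide. The log2 change came to -0.03 (SE 0.043, adjusted p = 0.86) for sgZBTB11 #1, -0.38 (SE 0.039, adjusted p = 5.7e-11) for sgZBTB11 #2 and 0.30 (SE 0.036, adjusted p = 4e-09) for sgNS. The net change was -0.51 (SE 0.047, adjusted p = 8e-13), and the difference between the ZBTB11 guides, -0.35 (SE 0.058, adjusted p = 5.4e-05), was the only such difference to pass among the 42, where 2.58% of 16809 genes did (0.803% higher, 1.78% lower). On the TPM scale the net change of SSBP1 was -0.27 (adjusted p = 0.00018) against an all-gene median of 0.19.

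**Figure D3:**
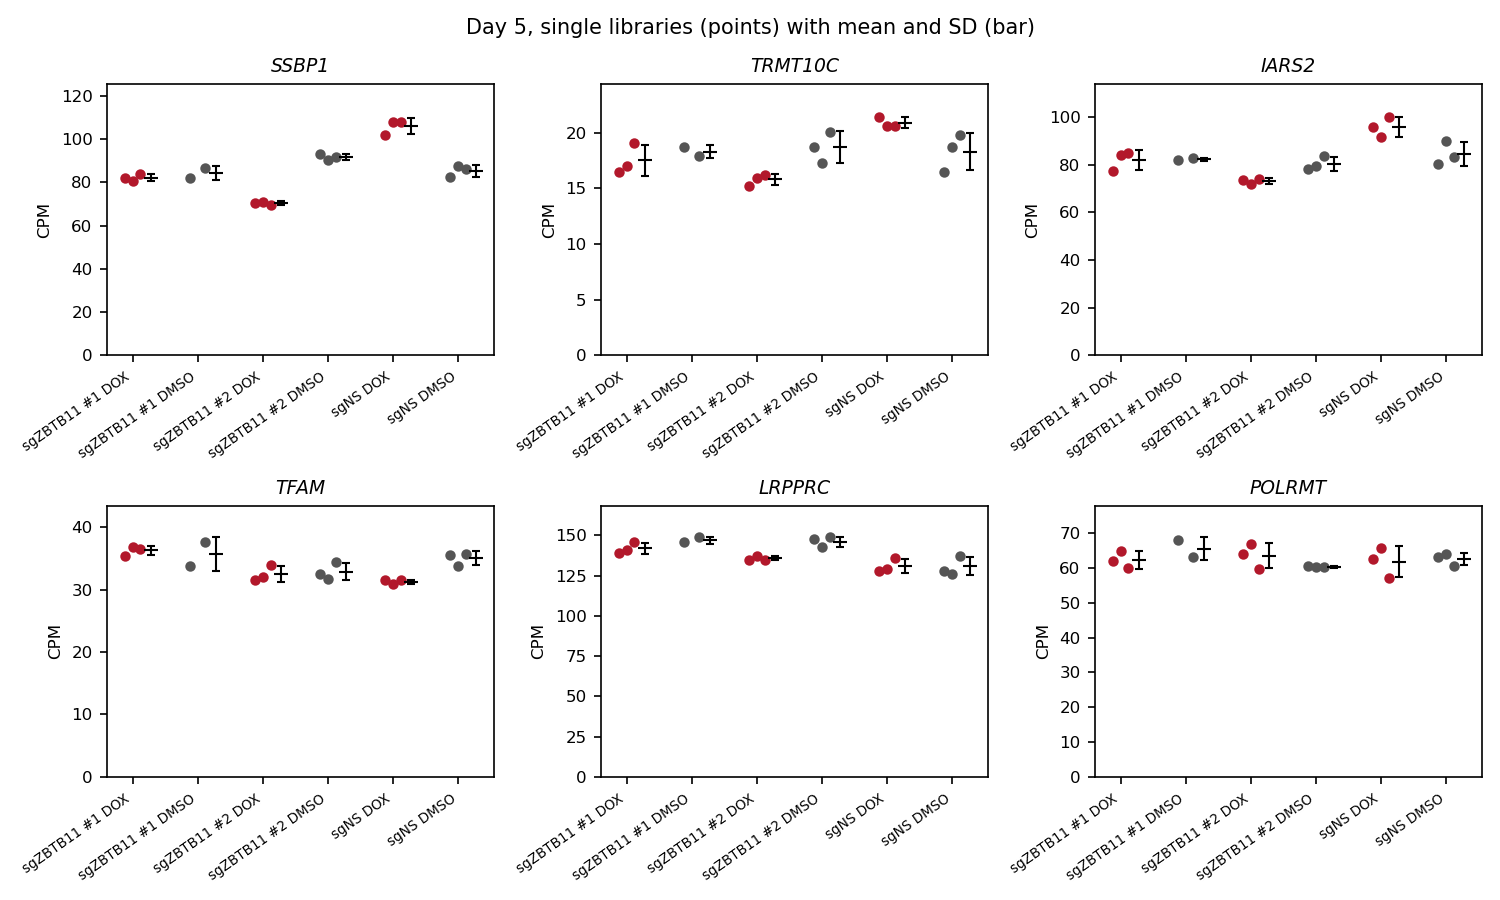
CPM at day 5 (y axis, from 0) of SSBP1, TRMT10C, IARS2, TFAM, LRPPRC and POLRMT in each library (points), with DOX left of DMSO within sgZBTB11 #1, sgZBTB11 #2 and sgNS (x axis) and the mean with its SD beside the points. SSBP1 sits at 69.6 to 71.1 CPM in sgZBTB11 #2 DOX libraries and at 102 to 108 CPM in sgNS DOX libraries, while POLRMT overlaps between DOX and DMSO in every guide.

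With sgZBTB11 #1, 0 of the 42 genes were higher and 2 lower with DOX at day 5, against 1.14% of all genes (0.363% higher, 0.773% lower). These were SLIRP (-0.21, adjusted p = 0.05 after rounding, under the threshold) and VARS2 (-0.18, adjusted p = 0.02). SLIRP lost its call in 13 of the 17 fits that left out a library, at most with -0.12 and an adjusted p of 0.56 without sgZBTB11 #1 DMSO day 5 replicate 2, and VARS2 lost it without any of the 5 sgZBTB11 #1 libraries, with an adjusted p of up to 0.33. Neither passed on the TPM scale (-0.14, adjusted p = 0.41, and -0.06, adjusted p = 0.85). With sgZBTB11 #2, 0 were higher and 5 lower, against 9% (3% higher, 6% lower). Besides SSBP1 they were TRMT10C (-0.25, adjusted p = 0.033), IARS2 (-0.14, adjusted p = 0.03), POLG (-0.13, adjusted p = 0.027) and LRPPRC (-0.11, adjusted p = 0.018). Each of these 4 was lost without some of the 6 sgZBTB11 #2 libraries, with an adjusted p of up to 0.20, 0.19, 0.19 and 0.089 in that order, whereas SSBP1 passed in all 17 fits. None of the 4 passed by DESeq2 (adjusted p = 0.15, 0.093, 0.095 and 0.062) or on the TPM scale (adjusted p = 0.17, 0.29, 0.51 and 0.8).

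In sgNS cells 5 were higher and 2 lower with DOX, against 17.3% of all genes (8.87% higher, 8.47% lower). IARS2 (0.18, adjusted p = 0.00079), HARS2 for histidine (0.15), PNPT1 (0.15) and ELAC2 (0.14) were higher beside SSBP1, and TFAM (-0.17, adjusted p = 0.027) and FASTK (-0.12) were lower. On the TPM scale 1 was higher and 16 lower around an all-gene median of -0.16, and IARS2, HARS2 and ELAC2 turned to -0.02, -0.07 and -0.14. TFAM was lost without any of 5 of the 6 sgNS libraries, with an adjusted p of up to 0.11 (-0.15 without sgNS DMSO day 5 replicate 3).

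Net of sgNS, 0 of the 42 genes were higher and 9 lower, against 19.2% of 16809 genes (8.95% higher, 10.3% lower), and the median was -0.13, against 0.00 over all genes. The share of the 42 called, 21.4%, was near that of all genes, and what differed was the split by direction. By role these were 2 of 5 genes of replication and packaging, 0 of 8 of transcription, 4 of 13 of RNA processing and 3 of 16 synthetases. On the TPM scale the split was 12 higher and 1 lower, with a median of 0.13 against 0.19 over all genes, and with the length trend removed it was 2 higher and 7 lower. Relative to all genes the median of the 42 was thus below 0 on each of these scales, at -0.13, -0.05 and -0.10. The lowest quartile of length over all genes minus the highest gave -0.19 in this comparison.

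TRMT10C had 16.5, 17 and 19.1 CPM in sgZBTB11 #1 DOX libraries, against 18.7 and 17.9 CPM with DMSO. In sgZBTB11 #2 cells it had 15.2, 15.9 and 16.2 CPM with DOX, against 18.7, 17.3 and 20.1 CPM with DMSO, and in sgNS cells 21.4, 20.6 and 20.6 CPM, against 16.5, 18.7 and 19.8 CPM. The sgZBTB11 #1 libraries overlapped, and those of the other guides were apart in opposite directions. The net change was -0.32 (SE 0.095, adjusted p = 0.0098) and was lost without sgNS DMSO day 5 replicate 1 (-0.26, adjusted p = 0.057). It did not pass on the TPM scale (-0.08, adjusted p = 0.51). PCNP, which lies between TRMT10C and ZBTB11, did not pass the net test (0.04, adjusted p = 0.72).

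IARS2, also given by library because its values were seen to differ, had 77.4, 84.1 and 85 CPM in sgZBTB11 #1 DOX libraries, against 81.9 and 82.8 CPM with DMSO. In sgZBTB11 #2 cells it had 73.5, 72 and 74.1 CPM with DOX, against 78.2, 79.5 and 83.8 CPM with DMSO, and in sgNS cells 96, 91.8 and 100 CPM, against 80.5, 90.1 and 83.4 CPM. The sgZBTB11 #2 and sgNS libraries did not overlap between DOX and DMSO. The net change was -0.25 (SE 0.051, adjusted p = 0.00024). It was 0.00 on the TPM scale, against an all-gene median of 0.19.

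SLIRP had 54.4, 59.1 and 51.4 CPM in sgZBTB11 #1 DOX libraries, against 60.1 and 67.3 CPM with DMSO, and 51.1, 55.3 and 56 CPM in sgZBTB11 #2 DOX libraries, against 53.6, 54.1 and 58 CPM. In sgNS cells it had 58.9, 55.3 and 57 CPM with DOX and 50.8, 56 and 52.1 CPM with DMSO. Here the sgZBTB11 #1 libraries were apart and the others overlapped, and the net change was -0.23 (SE 0.064, adjusted p = 0.0076). It turned to 0.03 on the TPM scale (adjusted p = 0.73) and to 0.06 with the length trend removed (adjusted p = 0.62). VARS2 had 139, 137 and 142 CPM in sgZBTB11 #1 DOX libraries, against 160 and 158 CPM with DMSO, and its net change was -0.18 (SE 0.047, adjusted p = 0.0049). ELAC2 had 88.4, 87.3 and 86.1 CPM in sgNS DOX libraries, against 82.4, 76.6 and 77.5 CPM with DMSO, and the ZBTB11 guides' libraries overlapped, with a net change of -0.16 (SE 0.047, adjusted p = 0.0097). Neither passed on the TPM scale and both turned positive there, with 0.06 for VARS2 (adjusted p = 0.64) and 0.13 for ELAC2 (adjusted p = 0.089). The all-gene median on that scale was 0.19.

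The other net calls were those of TARS2 (-0.23, adjusted p = 0.043), PNPT1 (-0.20, adjusted p = 0.027) and POLG (-0.13, adjusted p = 0.047). TARS2 lost its call in 11 of the 17 fits that left out a library, at most with -0.19 and an adjusted p of 0.14 without sgNS DOX day 5 replicate 1, and PNPT1 lost it in 4, at most with -0.18 and an adjusted p of 0.086 without the same library. POLG, the call nearest the threshold, was lost in 11 of these fits, at most with -0.11 and an adjusted p of 0.14 without sgNS DOX day 5 replicate 2. By DESeq2 none of the 3 passed (adjusted p = 0.16, 0.094 and 0.1), and on the TPM scale TARS2 and POLG turned to 0.08 and 0.22 and PNPT1 had -0.14, none past the threshold (adjusted p = 0.58, 0.17 and 0.12). No gene with a net call was called lower in both ZBTB11 guides by themselves. The genes that did not pass included TFAM, with a net change of 0.18 (SE 0.070, adjusted p = 0.071), POLRMT, with 0.02 (SE 0.059, adjusted p = 0.85), and LRPPRC, with -0.07 (SE 0.041, adjusted p = 0.25). TFAM had 35.4, 36.9 and 36.6 CPM in sgZBTB11 #1 DOX libraries, against 33.8 and 37.6 CPM with DMSO, and 31.5, 31 and 31.6 CPM in sgNS DOX libraries, against 35.6, 33.8 and 35.8 CPM with DMSO. POLRMT had 64.2, 66.9 and 59.7 CPM with DOX in sgZBTB11 #2 cells, against 60.7, 60.2 and 60.2 CPM with DMSO, which overlap.

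**Figure D4:**
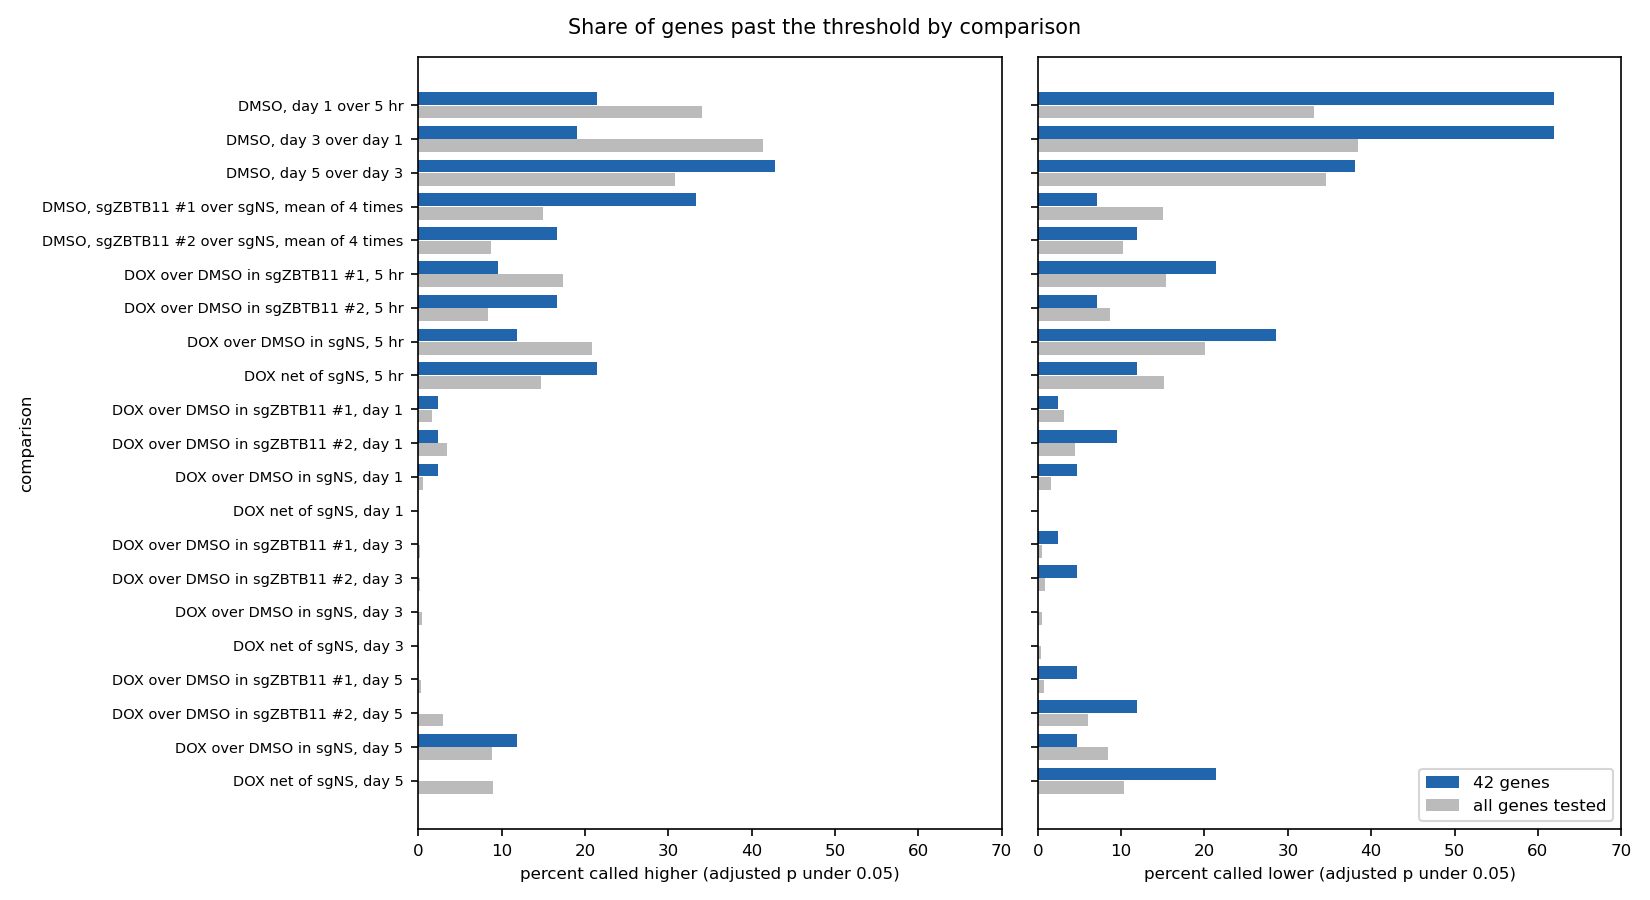
Percent of the 42 genes (blue) and of all genes tested (grey) called higher (left) or lower (right) at an adjusted p under 0.05 in each comparison (rows), leaving out the differences between the ZBTB11 guides. In the net comparison at day 5, 21.4% of the 42 genes were called lower, against 10.3% of all genes, and at days 1 and 3 the net bars of the 42 genes are at 0.

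Genes of the same pathways outside the 42 were followed in lists chosen by function. At day 3, net of sgNS, the tested genes of these lists past the threshold were ANGEL2, a phosphatase of RNA ends (0.28), and the mitochondrial ribosomal RNA MT-RNR2 (-0.14), beside ZBTB11. Net of sgNS at day 5, 19.2% of all genes were called (8.95% higher, 10.3% lower), and the counts of the lists stand beside that share. In this comparison 2 of 13 further genes of mitochondrial DNA replication and nucleotide supply were higher and 1 lower, namely RRM2B, a ribonucleotide reductase subunit (0.39), RNASEH1 (0.22) and the topoisomerase TOP1MT (-0.27). Among 32 genes of RNA modification and turnover 1 was higher and 3 lower, with REXO2, an exonuclease of short RNAs, at -0.36, ANGEL2 at 0.27 and the pseudouridine synthase TRUB2 at -0.23. Of 16 translation factors and amidotransferase genes 0 were higher and 3 lower, the initiation factors MTIF3 (-0.47) and MTIF2 (-0.40) and the ribosome recycling factor GFM2 (-0.14). On the TPM scale these 3 lists had 5 higher and 0 lower, 4 and 0, and 6 and 1.

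The RNAs that the 42 genes serve moved at day 5 too. Net of sgNS, 14 of 15 mitochondrially encoded RNAs were lower and 0 higher, against 10.3% and 8.95% of all genes. Their median was -0.32, and TPM gave 8 lower and 0 higher. MT-CO2, MT-ATP8 and MT-CO3, which encode subunits of cytochrome oxidase and ATP synthase, had net changes of -0.46, -0.41 and -0.39. Within guides, 2 of the 15 were lower with DOX in sgZBTB11 #1 cells, 3 were lower and 1 higher in sgZBTB11 #2 cells, and 14 were higher and 0 lower in sgNS cells. Of all genes 0.773% were lower with sgZBTB11 #1, 6% lower and 3% higher with sgZBTB11 #2, and 8.87% higher with sgNS. As a share of counts these RNAs made up 33% with DOX and 33.6% with DMSO in sgZBTB11 #1 cells, 31.4% and 31.3% in sgZBTB11 #2 cells, and 29.5% with DOX and 26.3% with DMSO in sgNS cells. The sgNS DOX libraries (29.4% to 29.8%) did not overlap the sgNS DMSO libraries (26% to 26.4%). The net decrease of these RNAs thus came with an increase in the control guide.

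Cytosolic aminoacyl-tRNA synthetases, which load tRNAs outside mitochondria, had 0 of 20 higher and 11 lower net of sgNS at day 5, against 8.95% and 10.3% of all genes. Their median was -0.16, while TPM gave 3 higher and 2 lower. SARS1 (-0.43), IARS1 (-0.37) and WARS1 (-0.36) had the largest net decreases among them. Of 8 genes at and around the ZBTB11 locus, TRMT10C included, 1 was higher and 3 lower, beside the same shares of all genes. Besides ZBTB11 (-0.50) these were CEP97, a centrosome gene (0.41), RPL24, a ribosomal protein gene 3959 bases from ZBTB11 (-0.39), and TRMT10C, and TPM gave 2 higher and 1 lower.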

How the data were processed

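RNA was measured in 70 libraries of polyA RNA, grouped by guide, treatment and time as the titles in the labels give them. For the sgNS DMSO group of day 1 the replicate numbers in the titles, used here for names and for the replicate block, differ from those in the library names. The values the authors deposited are expected counts, of which 5.13% were not whole, and TPM. The submitters' processing notes name RSEM and GRCh38.p14, whereas aligner, annotation version and strand setting were not given in the sources used here. Each expected count was rounded before testing, and 0 columns belonged to other samples. Of 78932 genes, 32891 had no count in any library. Libraries of a group were compared by a chi-square of their counts per degree of freedom, which ran from 1.33 to 4.93 over 68 pairs with a median of 1.63, and no pair was counted as 1 library.

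Robust quasi-likelihood F tests were run in edgeR 4.0.16 (R 4.3.3) after TMM scaling and the filterByExpr filter on groups, with p-values adjusted by the Benjamini-Hochberg method over all genes tested and a threshold of 0.05. All libraries of a time entered 1 fit with 6 group means, and the 34 DMSO libraries entered another with 12. CPM is scaled over all 70 libraries. The members, their roles, the related lists and the tests were chosen with earlier results of these data known. Members named in a comparison were up to 8 past the threshold with the largest absolute change, or up to 3 with the smallest p where none passed. Values by library were given for TFAM, POLRMT, POLG, LRPPRC and TRMT10C, added for its position, and for VARS2, SLIRP and ELAC2, which passed the net test at the most times. Other members, SSBP1 and IARS2 by library among them, were named after their values were seen.

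The alternatives were RLE scaling, DESeq2 1.42.0 without independent filtering, a block by replicate number, testing without the filter, limma 3.58.1 on log2(TPM + 1) where 3 libraries reached a TPM of 1, removal of a trend with gene length, and leaving out each library in turn. Length was the one implied by the ratio of expected counts to the deposited TPM. A fold change on the log2(TPM + 1) scale understates the change of low genes. Fits were tested on simulated data.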

Additional observations from a re-analysis of the deposited data

Results flagged for a closer look

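At 5 hr the DOX change of the ZBTB11 guides differed from that of sgNS by an interaction test in edgeR (adjusted over all genes) for 14 of the 42 genes (33.3%), close to the 30% of all genes. The net log2 values were POLG 0.25, TFAM -0.34, POLRMT 0.24, MTERF1 -0.29, HSD17B10 0.13, ELAC2 0.18, LRPPRC -0.12, SLIRP 0.36, FASTK 0.28, AARS2 0.28, MARS2 -0.42, NARS2 -0.28, SARS2 0.37 and VARS2 0.51. Among the smaller of these, POLG (-0.02), POLRMT (0.21), HSD17B10 (-0.01) and ELAC2 (-0.08) did not pass on the TPM scale, where the all-gene median was -0.13. LRPPRC (-0.27) and NARS2 (-0.45) passed there. By the net split on that scale given above, most of the larger positive values were not called higher there either. HSD17B10 was also lost in 10 of the 18 fits that left out a library. By DESeq2 HSD17B10 and NARS2 did not pass (adjusted p = 0.15 and 0.095).

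At the same time the ZBTB11 guides differed from each other, as sgZBTB11 #2 minus sgZBTB11 #1, for 15 genes (35.7%), close to the 35.1% of all genes. The values were POLG 0.57, TWNK -0.20, TFAM -0.41, POLRMT 0.31, TFB2M -0.28, TRMT10C -0.37, ELAC2 0.28, FASTK 0.48, AARS2 0.50, HARS2 0.25, MARS2 -0.34, PARS2 -0.52, SARS2 0.45, VARS2 0.67 and YARS2 -0.17. Among the smaller of these, TWNK, POLRMT, ELAC2, HARS2 and YARS2 did not pass on the TPM scale (adjusted p = 0.11, 0.13, 0.13, 0.45 and 0.85). TFB2M (-0.42) and MARS2 (-0.44) passed there. By DESeq2 TWNK and MARS2 did not pass (adjusted p = 0.1 and 0.077). The PARS2 difference between these guides was lost in 7 of the 18 fits that left out a library (-0.41, adjusted p = 0.11 without sgZBTB11 #2 DOX 5 hr replicate 2). Of the net values in the paragraph above, that of MTERF1 was lost in 11 of these fits (-0.26, adjusted p = 0.11 without sgNS DOX 5 hr replicate 1). ZBTB11 itself was not lower with DOX in sgZBTB11 #1 cells at 5 hr, and the medians of the lowest and highest quartiles of gene length over all genes differed by 0.28 for the net values and by 0.30 for the guides. The part of either in these differences was not tested.

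At day 5 the net test set the ZBTB11 guides apart from sgNS for 9 genes (21.4%, against 19.2% of all genes), with values of POLG -0.13, SSBP1 -0.51, TRMT10C -0.32, ELAC2 -0.16, PNPT1 -0.20, SLIRP -0.23, IARS2 -0.25, TARS2 -0.23 and VARS2 -0.18. On the TPM scale the split was 12 higher and 1 lower around an all-gene median of 0.19. POLG, ELAC2, SLIRP, IARS2, TARS2 and VARS2 were no longer below 0 there, but all of these except POLG stayed below that median. The ZBTB11 guides differed from each other for SSBP1, by -0.35. ZBTB11 was lower in both lines at that time, by -0.42 with sgZBTB11 #1 and by -0.90 with sgZBTB11 #2.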

How the results depend on the processing

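Of 150 counts of called members under another setting, 127 stayed within 1.5 times the main count, and of 520 with a library left out, 478 did. The counts that moved were those on log2(TPM + 1) by limma for the sgZBTB11 #1 line against sgNS in DMSO (8), for DOX with sgZBTB11 #2 at 5 hr (4), and for days 1, 3 and 5 in turn with sgZBTB11 #1 (0, 0 and 0), sgZBTB11 #2 (1, 0 and 2) and sgNS (1, 1 and 17). By DESeq2 they were those for the same guides at day 1 (0, 2 and 1), for sgZBTB11 #1 and sgZBTB11 #2 at day 3 (0 and 0) and for all 3 at day 5 (1, 1 and 4). With no filter the sgZBTB11 #1 count at day 3 was 0, and at day 5 it was 1 under RLE scaling, under the replicate block and with the length trend removed. The causes were not tested.

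With each library left out in turn, the counts with DOX for days 1, 3 and 5 in turn ranged from 1 to 3, 0 to 2 and 0 to 2 with sgZBTB11 #1, from 3 to 6, 0 to 2 and 1 to 5 with sgZBTB11 #2 and from 0 to 4, 0 to 1 and 4 to 7 with sgNS, and the net count for day 3 from 0 to 1.

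Of 786 values of named members under another setting, 688 kept direction and side of the threshold, 87 lost the threshold, 1 gained it and 10 reversed. By limma on TPM the reversed values were POLG2 with sgZBTB11 #1 at 5 hr (0.00), IARS2 (-0.02), HARS2 (-0.07) and ELAC2 (-0.14) with sgNS at day 5, and the day 5 net values of IARS2 (0.00), SLIRP (0.03), TARS2 (0.08), VARS2 (0.06) and ELAC2 (0.13). All-gene medians on that scale were 0.08, -0.16 and 0.19 in these comparisons, in the same order. With the length trend removed the net value of SLIRP was 0.06. SSBP1 kept its 4 calls at day 5 under each setting.

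Same-numbered libraries of different groups deviated together with mean correlations of -0.0055 to 0.03 per time, with single pairs of up to 0.29 (day 1). These means gave no sign of a pairing shared by all groups, but cannot show whether some groups were paired. The replicate block gave a net count of 7 at day 5, against 9 without it. Counts per library limit what can be seen in low genes, with as few as 31 for PARS2.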

Other observations

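The related lists moved over time in DMSO cells as well, by edgeR's quasi-likelihood test. Of 15 mitochondrially encoded RNAs 15 fell over the first day, with a median log2 change of -0.37, and 15 rose at each of the next steps, with medians of 0.43 between days 1 and 3 and 0.81 between days 3 and 5. TPM gave 12 lower, 15 higher and 15 higher. Of all genes 33.1% fell over the first day, and 41.4% and 30.8% rose at the next steps. TFAM, TFB2M and TWNK fell over the days on which these RNAs rose, as the values by time above show. TWNK also fell over the first day, as these RNAs did, and TFB2M did so on counts (-0.21) but not on TPM (0.01). Between days 3 and 5, 18 of the 42 genes rose and 16 fell on counts. POLRMT, MTPAP and LRPPRC were among those that rose (0.22, 0.25 and 0.14), with 0.22, -0.03 and -0.11 on the TPM scale.

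Of 20 cytosolic aminoacyl-tRNA synthetases 20 fell between days 1 and 3, with a median of -0.97 (18 on the TPM scale), while the mitochondrial synthetases had a median of -0.51 and fell in 11 of 16. Of 16 mitochondrial translation factors and amidotransferase genes 12 fell and 3 rose over those days, with a median of -0.49, and of 32 genes of mitochondrial RNA modification and turnover 21 fell and 5 rose, with a median of -0.23. In these comparisons 79.8% of all genes were called and the median over all genes was 0.05.

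Without DOX and as a mean over the times, 11 of the 15 mitochondrially encoded RNAs were higher in sgZBTB11 #1 than in sgNS cells. Their median was 0.14, against 15% of all genes higher. In sgZBTB11 #2 cells 7 were lower on the same mean, with a median of -0.02, against 10.2% of all genes lower. The order of the lines was not the same at each time. At day 1 these RNAs made up 10.2% of counts in sgZBTB11 #1, 10.4% in sgZBTB11 #2 and 12.3% in sgNS DMSO cells. At day 5 the shares were 33.6%, 31.3% and 26.3% in that order of lines. They were 14.1%, 12.6% and 14.1% at 5 hr and 21.8%, 17.9% and 18.4% at day 3.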
